A study of Mus musculus with 8 samples.

Results

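Melanin synthesis and melanocyte genes were followed through a plucking time course in mouse dorsal skin. The set holds 10 genes, Tyr, Tyrp1, Dct, Pmel, Mlana, Gpr143, Oca2, Slc45a2, Mitf and Mc1r, chosen by gene name from the 34790 gene names on the array. All 10 were represented, Tyr, Dct and Mitf by a pair of probes each and the others by 1 probe.

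The samples came from female C57BL/6 mice, an inbred black strain that carries the nonagouti allele, and all 8 groups share that strain and sex. The control was skin that had been shaved and not plucked, at 10 weeks of age. The other samples were taken 12 h, 1 d, 2 d and 4 d after the dorsal hair was stripped with wax, at 10 weeks of age, then at 6 d and 10 d, at 11 weeks, and at 50 d, at 17 weeks. The treatment protocol in the labels gives a younger age at plucking than the age labels do, and the files do not settle which is right. Per the design text, the coat had been synchronised by an earlier waxing and the material was the tissue around the follicles, fat and dermis together, whereas the sample labels call it adipose cells. Each group is 1 sample on 1 array, and whether it held RNA of 1 mouse or of several is not given in the sources used here. There is therefore no replicate, no difference between arrays carries a test, and the number of arrays limits the precision. In such bulk RNA more cells of a type and more RNA per cell cannot be told apart.

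All 8 arrays were on 1 slide. No spot was saturated, the share of spots well above background ran from 72.9% to 81.2%, and per the file headers the 10 d array had a spike-in slope out of range. Fat was well represented: all 12 adipocyte genes examined were well above background on all 8 arrays. Hair shaft and inner root sheath genes were well above background on all 8 arrays for 18 of 19, although the design text describes the material as lying outside the follicle. Levels below are log2 processed signals minus the 75th percentile of the array, so a level of 0 is the signal that 75% of probes do not exceed. The error given after ± is the scanner's own error model for the spot, or its combination over both spots for a difference. It is technical and does not include the spread between mice.

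Melanin is made by melanocytes, pigment cells that arise from the neural crest, inside organelles called melanosomes. In the hair follicle, mature melanocytes sit in the bulb and pass pigment to the growing hair shaft, and they do so during the growth phase, anagen. In resting follicles, pigment production stops and melanocyte stem cells remain in the bulge and hair germ. Plucking a resting follicle starts a new growth phase. The transcription factor MITF binds a short DNA element, the M-box, in front of several pigment genes, among them the melanin synthesis enzymes.

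The letters of that element were looked up in the promoters of the set, because its members moved together in the measurements below. The core searched was TCATGTG, on both strands, in the 300 bases from 250 before to 50 after each RefSeq gene start of GRCm38.p6. Of the 10 genes, 6 matched a promoter entry by symbol, with 8 windows in all: Tyr, Tyrp1, Dct, Oca2, Mc1r and 3 start sites of Mitf. The core was present in 4 of those 6 genes, Tyr, Tyrp1, Dct and Mc1r, and in none of the 3 Mitf windows or the Oca2 window. Counted by window it was in 4 of 8, against 3.77% of all 32851 promoters. The element was already known in front of the melanin synthesis enzymes. Their matches were thus fixed in advance, and the share of all promoters is no test of them. The shorter core CATGTG, which is contained in the longer one, was present in 5 of the 6 genes, Oca2 being the addition. By window it was in 5 of 8, against 14.2% of all promoters. Pmel, Mlana, Gpr143 and Slc45a2 have no promoter shown. The 250 bases before the start are shown for the 4 genes with the longer core, on the strand of the gene, with the core in capitals.
Tyr, chr7:87493513-87493762, minus strand: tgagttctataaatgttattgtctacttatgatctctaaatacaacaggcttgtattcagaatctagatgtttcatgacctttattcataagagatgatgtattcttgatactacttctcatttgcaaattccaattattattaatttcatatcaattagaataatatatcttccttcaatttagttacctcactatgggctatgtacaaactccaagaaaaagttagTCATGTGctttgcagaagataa
Tyrp1, chr4:80833963-80834212, plus strand: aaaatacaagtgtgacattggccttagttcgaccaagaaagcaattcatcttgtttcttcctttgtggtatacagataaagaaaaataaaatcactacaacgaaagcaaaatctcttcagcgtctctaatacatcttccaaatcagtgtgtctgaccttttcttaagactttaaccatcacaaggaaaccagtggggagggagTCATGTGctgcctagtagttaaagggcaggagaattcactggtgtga
Dct, chr14:118052247-118052496, minus strand: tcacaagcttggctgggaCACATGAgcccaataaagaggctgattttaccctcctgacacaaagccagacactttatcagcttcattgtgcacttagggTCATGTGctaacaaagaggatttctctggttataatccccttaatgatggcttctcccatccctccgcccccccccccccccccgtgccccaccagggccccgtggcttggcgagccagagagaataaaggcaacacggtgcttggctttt
Mc1r, chr8:123406832-123407081, plus strand: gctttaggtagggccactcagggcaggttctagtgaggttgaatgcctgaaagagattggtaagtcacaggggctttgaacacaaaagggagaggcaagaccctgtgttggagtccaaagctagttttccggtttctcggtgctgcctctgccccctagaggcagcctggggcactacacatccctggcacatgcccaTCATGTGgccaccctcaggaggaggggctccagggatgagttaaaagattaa
The first base of the core lay 22 bases before the RefSeq start in Tyr, 47 in Tyrp1 and 52 in Mc1r. Dct held it at 151 bases and, in the reverse orientation, at 232 bases before the start. A match describes the letters only.

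The 3 melanin synthesis enzymes were at their lowest in the control or at 12 h and at their highest at 4 d or 6 d. Tyrp1, which acts on melanin intermediates and stabilises tyrosinase, was at a log2 level of -3.23 in the control, -2.86, -2.66 and -1.54 on the 12 h, 1 d and 2 d arrays, 2.69 and 2.72 on the 4 d and 6 d arrays, 0.26 by 10 d and -2.00 by 50 d. The 4 d and 6 d arrays thus stood apart from all others, at 60.5-fold and 61.6-fold the control (log2 differences of 5.92 ± 0.22 and 5.94 ± 0.22). Dct, dopachrome tautomerase, a further enzyme of the eumelanin branch, was at -0.71 in the control, -1.01 at 12 h, -0.61 at 1 d and 1.06 on the 2 d array, then 4.77 and 4.08 at 4 d and 6 d, 1.95 on the 10 d array and 0.42 on the 50 d array. It was 44.5-fold the control at 4 d and 27.6-fold at 6 d. Its second probe, which lies almost on top of the first, gave log2 differences of 5.48 at 4 d and 4.84 at 6 d, against 5.48 and 4.79 for the first.

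Tyr encodes tyrosinase, the rate-limiting enzyme of melanin synthesis, and its change was smaller and depended on the probe. The brighter probe, 1 spot at chr7:94632414-94632473 (mm9), was at -1.96 in the control, -2.21, -1.63 and -1.63 on the 12 h, 1 d and 2 d arrays, -0.63 and -0.74 on the 4 d and 6 d arrays, -1.33 by 10 d and -1.68 by 50 d. Its 4 d value was 2.51-fold the control (log2 difference 1.33 ± 0.21) and its 6 d value 2.32-fold (1.22 ± 0.21). The other probe, printed 10 times at chr7:94576265-94576324 and 56.1 kb away, was well above background at 4 d and 6 d only, with log2 levels of -4.69 and -5.32 against -6.35 in the control. Its signal at 4 d was at least 1.31-fold the control, a bound set by the background of the control array, and at 6 d no fold could be given. Both probes therefore had their highest value at 4 d, and the brighter one did not reach the size seen for Tyrp1 or Dct.

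**Figure D1:**
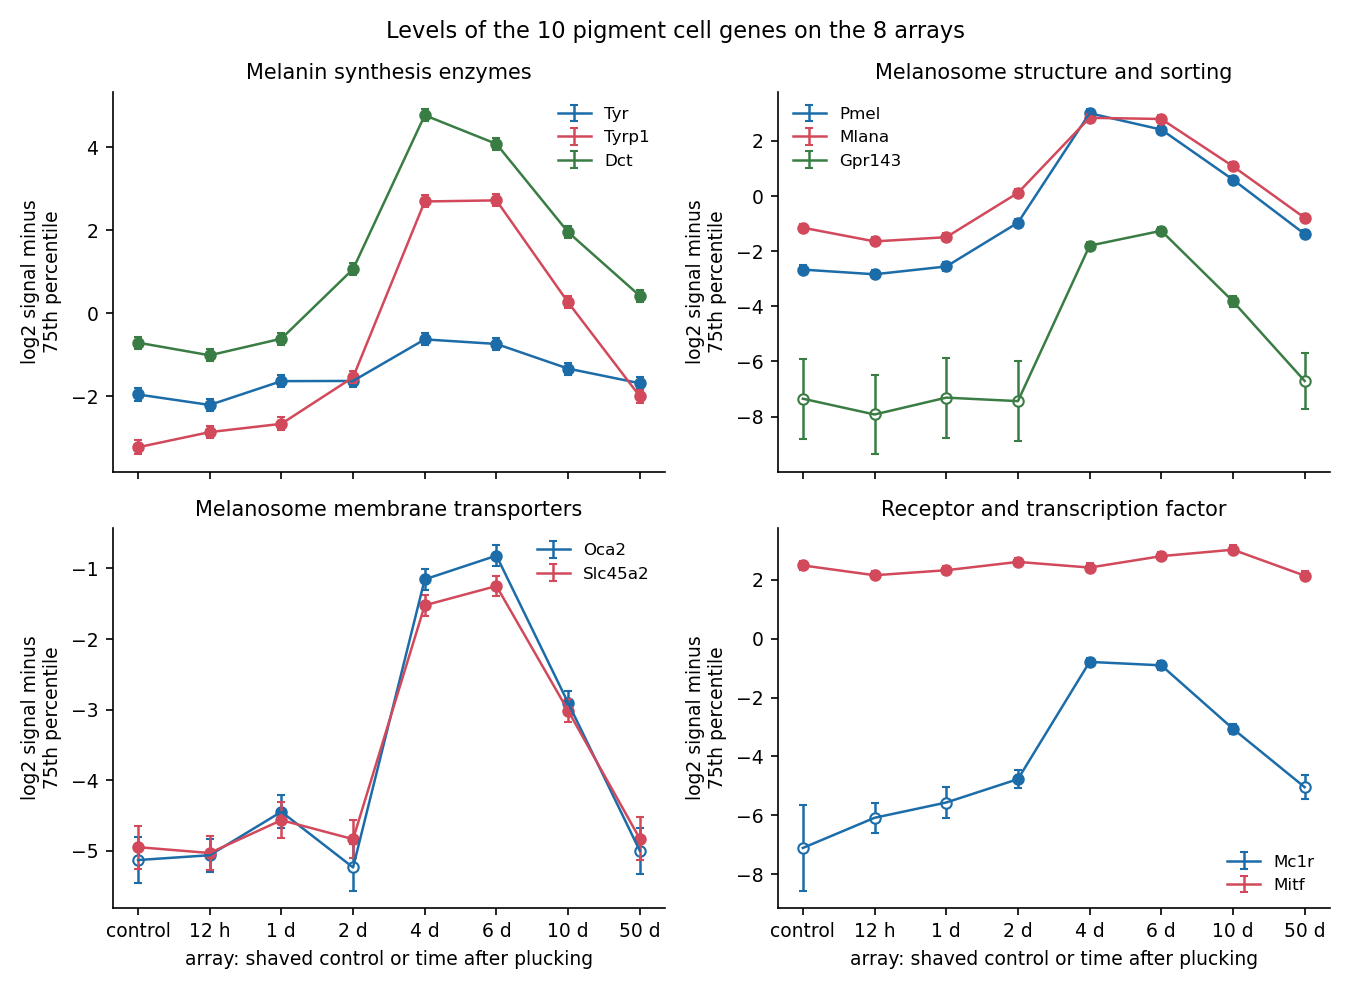
Log2 processed signal minus the array's 75th percentile (vertical axis) for the 10 genes on the 8 arrays (horizontal axis, 1 array per group), grouped by role; bars are the scanner's error for the spot, filled points are well above background and open points are not. Every gene but Mitf sits highest at 4 d or 6 d, and Mitf is highest at 10 d.

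The melanosome structure and sorting genes had the same course. Pmel encodes the protein that forms the fibrils on which melanin is laid down (chr10, mm9, probe between 128156029 and 128156986). It was at -2.67 in the control, -2.84 at 12 h, -2.55 at 1 d and -0.97 on the 2 d array, then 3.00 and 2.41 at 4 d and 6 d, 0.59 on the 10 d array and -1.38 on the 50 d array. It was 51.0-fold the control at 4 d and 33.8-fold at 6 d (log2 differences of 5.67 ± 0.21 and 5.08 ± 0.21). Mlana, a melanosomal membrane protein also known as MART-1 that is needed for PMEL processing (chr19:29782737-29782796), was at -1.15 in the control, -1.65, -1.49 and 0.11 on the 12 h, 1 d and 2 d arrays, 2.84 and 2.79 on the 4 d and 6 d arrays, 1.08 by 10 d and -0.79 by 50 d. It was 15.8-fold the control at 4 d and 15.4-fold at 6 d, with the 12 h and 1 d arrays the lowest of the series.

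Gpr143, the ocular albinism receptor of the melanosome membrane (chrX:149243130-149243189), was well above background on the 4 d, 6 d and 10 d arrays only. Its levels there were -1.80, -1.26 and -3.82, and on the other 5 arrays it lay between -7.92 and -6.71, where the error of the spot was as large as 1.45. Relative to the lowest measurable signal of the control array it was at least 9.73-fold higher at 4 d, at least 14.1-fold at 6 d and at least 2.40-fold at 10 d.

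The melanosome transporters Oca2 and Slc45a2, which set melanosome pH and are mutated in forms of albinism, ran closely together and were highest at 6 d. Slc45a2 (chr15:10958929-10958988) was at -4.95 in the control, -5.03 at 12 h, -4.56 at 1 d and -4.83 on the 2 d array, then -1.52 and -1.25 at 4 d and 6 d, -3.01 on the 10 d array and -4.83 on the 50 d array. It was 10.7-fold the control at 4 d and 13.0-fold at 6 d (log2 differences of 3.42 ± 0.34 and 3.70 ± 0.34). Oca2 (chr7:63791667-63791726) was at -5.13 in the control, -5.06, -4.44 and -5.23 on the 12 h, 1 d and 2 d arrays, -1.15 and -0.82 on the 4 d and 6 d arrays, -2.90 by 10 d and -5.00 by 50 d. Its control, 2 d and 50 d spots were not well above background, so it was at least 15.2-fold higher than the control at 4 d, at least 19.2-fold at 6 d and at least 4.53-fold at 10 d. For both genes the 4 d, 6 d and 10 d arrays lay above the other 5 with no overlap.

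Mc1r is the receptor for melanocyte-stimulating hormone, whose signal favours black eumelanin (chr8:125934583-125934642). It was at -7.11 in the control, -6.09 at 12 h, -5.57 at 1 d and -4.77 on the 2 d array, then -0.79 and -0.91 at 4 d and 6 d, -3.06 on the 10 d array and -5.04 on the 50 d array. The control, 12 h, 1 d and 50 d spots were not well above background. It was at least 19.6-fold higher than the control at 4 d, at least 18.1-fold at 6 d and at least 4.06-fold at 10 d, and at 2 d the bound was 1.24-fold.

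Mitf, the transcription factor that drives the others in melanocytes, did not have this pattern. Its brighter probe (chr6:97971229-97971288) was at 2.49 in the control, 2.16, 2.33 and 2.61 on the 12 h, 1 d and 2 d arrays, 2.42 and 2.81 on the 4 d and 6 d arrays, 3.02 by 10 d and 2.14 by 50 d. Its log2 difference from the control was -0.07 ± 0.20 at 4 d, 0.32 ± 0.20 at 6 d and 0.53 ± 0.20 on the 10 d array. At no time was it 2-fold away from the control. The second probe (chr6:97968501-97968560) gave -0.19 at 4 d, 0.18 at 6 d and 0.61 at 10 d. Mitf has several promoters that serve different cell types, mast cells and others included. Both probes are listed for the same transcript, and their place in its exons was not looked up. The melanocyte form was therefore not measured separately.

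No pigment gene was called during the first day, a count near the share of all genes called. At 12 h after plucking no member was called 2-fold higher or lower than the control, against 3.85% of all genes higher and 3.32% lower. The median member difference was -0.21 (8 members well above background on at least 1 of the arrays compared). At 1 d again no member was called, against 2.75% of all genes higher and 3.14% lower, with a median difference of 0.22. Mc1r by its own value was 1.02 above the control at 12 h and 1.54 at 1 d. It was well above background on none of these arrays.

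At 2 d part of the set was higher. Tyrp1, Dct, Pmel and Mlana were between 1.26 and 1.77 above the control on the log2 scale (2.40-fold to 3.41-fold), and Mc1r was counted with them on its own value, although its bound of 1.24-fold is below 2-fold. That makes 5 members higher, against 2.62% of all genes, and none lower, against 3.52%. Over the same interval Slc45a2 differed from the control by 0.11 ± 0.41 and Tyr by 0.33 ± 0.21, while Gpr143 and Oca2 were not well above background on either array. From 1 d to 2 d the first 4 were higher by 1.12 for Tyrp1, 1.67 for Dct, 1.59 for Pmel and 1.61 for Mlana. The median member difference at 2 d was 0.79, and putting dim members at their bound gave 0.32. With a background correction by normexp, which adds 50 to each signal, Mc1r was 0.32 above the control and the median was 0.27. None of the 5 was 2-fold higher at 2 d when the 50 d array was used as the reference in place of the control.

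At 4 d 9 of 10 members were at least 2-fold higher than the control, all but Mitf, against 5.91% of all genes, and none was lower, against 6.50%. The median member difference was 4.73, beside -0.13 over all genes, and putting dim members at their bound gave 3.96. At 6 d the same 9 were higher, against 4.16% of all genes, and none lower, against 2.09%, with a median of 4.55, or 4.06 at the bound. The step from 2 d to 4 d was higher by 2-fold or more for 9 members, against 4.76% of genes, and 2-fold lower for none, against 3.95%. It ran from 1.00 for Tyr to 4.23 for Tyrp1 among the called members measured on both arrays. In the normexp values the median was 2.44 at 4 d and 2.48 at 6 d, and Tyr at 6 d was 0.92 above the control, short of 2-fold.

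Between 4 d and 6 d no member differed by 2-fold, against 5.12% of all genes higher and 2.66% lower at 6 d. Tyr, Tyrp1, Mlana and Mc1r differed between these arrays by less than the scanner error. Dct and Pmel were lower at 6 d, by log2 differences of -0.69 ± 0.20 and -0.59 ± 0.20, while Gpr143, Oca2 and Slc45a2 were higher, by 0.54 ± 0.21, 0.34 ± 0.20 and 0.27 ± 0.21, and so was Mitf, by 0.39 ± 0.20. Dct and Pmel were among the genes already 2-fold higher at 2 d, and the 4 that were higher at 6 d were not. The other genes called at 2 d, Tyrp1, Mlana and Mc1r, were within the scanner error here. Gpr143 and Oca2 were not well above background at 2 d, so they could not be called then. With 1 array per time the difference between these groups was not tested.

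**Figure D2:**
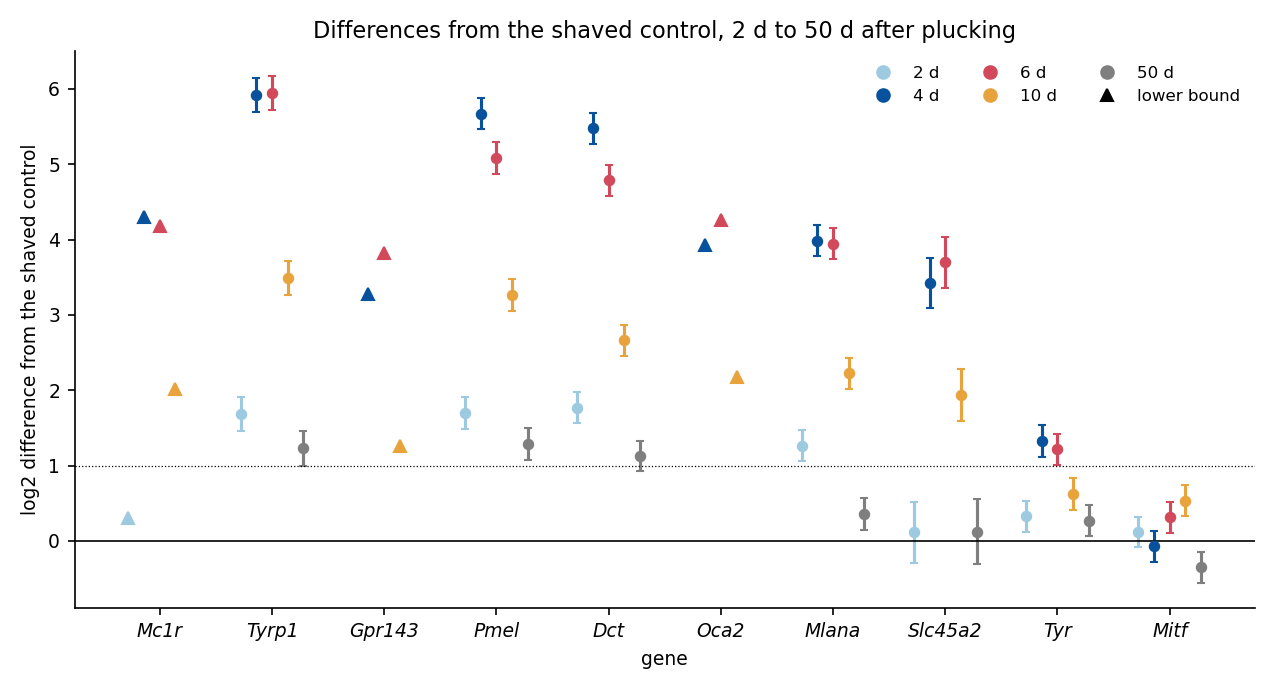
Log2 difference from the shaved control (vertical axis) for each gene at 5 times (colours); circles are differences measured on both arrays with the combined scanner error, triangles are lower bounds for genes not well above background in the control, and the dotted line marks 2-fold. Points for Tyrp1, Pmel, Dct and Mlana lie above the line already at 2 d, and all genes but Mitf lie above it at 4 d and 6 d.

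At 10 d 8 members were still at least 2-fold above the control, against 3.99% of all genes, and none was lower, against 2.13%. The median difference was 2.44, or 2.10 at the bound. Tyr was 1.54-fold and Mitf 1.45-fold the control. Tyrp1 was 11.2-fold, Pmel 9.59-fold and Dct 6.32-fold. In the normexp values the count at 10 d was 5 and the median 1.05, with Gpr143, Oca2 and Slc45a2 short of 2-fold, and 5 members were counted when a gene had to be well above background on both arrays.

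At 50 d Pmel was 2.45-fold, Tyrp1 2.34-fold and Dct 2.19-fold the control, 3 members against 2.70% of all genes, with none lower against 4.41%. Mlana, Slc45a2, Tyr and Mitf were within 2-fold, and Gpr143, Oca2 and Mc1r were not well above background on either array. None of the 3 was 2-fold higher in the normexp values. The 50 d sample came from mice labelled 17 weeks old and the control from 10 weeks, so age and time after plucking cannot be told apart.

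The 4 d, 6 d and 10 d arrays all lay above all 5 others for 9 of the 10 members, the exception being Mitf, while 2.58% of 30676 genes had that order. Each of the 9 correlated with the mean of the other members at a Pearson r between 0.96 and 0.997 over the 8 arrays, and Mitf at 0.53. These arrays are shared by all genes, so the coefficients describe one time course.

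Most pigment genes were lower at 10 d than at 6 d, while part of the hair keratins were not, a difference between sets that was not tested. The 10 d array is the one with the spike-in slope out of range. Of the 10 members 8 were at least 2-fold lower at 10 d, against 3.80% of all genes, and none higher, against 2.74%. The log2 differences ran from -1.72 for Mlana to -2.56 for Gpr143 among these 8, with a median over all 10 of -1.95. Tyr differed by -0.59 and Mitf by 0.22. Of the 19 hair shaft and inner root sheath genes, 9 were 2-fold lower, with a median of -0.99. Krt33a, a keratin of the hair cortex, was at 5.51 at 6 d and 5.06 at 10 d. Chosen after their values were seen, Krt33b, Krt34, Krt81, Krt83 and Krt86, also hair keratins, were between 0.06 and 0.27 higher at 10 d than at 6 d. The inner root sheath keratins Krt25 and Krt28 were lower at 10 d, both by -1.37. The hair keratin Krt35 was lower as well, by -1.41. Hair keratins are near-identical in sequence, so their probes may share signal. Other lists were lower over this step as well: 12 of 12 cell division genes, with a median of -1.93, and 11 of 13 interfollicular epidermis genes, with a median of -2.13. From 10 d to 50 d 8 members were again 2-fold lower, against 6.97% of all genes, and none higher, against 5.58%, with a median of -1.92.

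**Figure D3:**
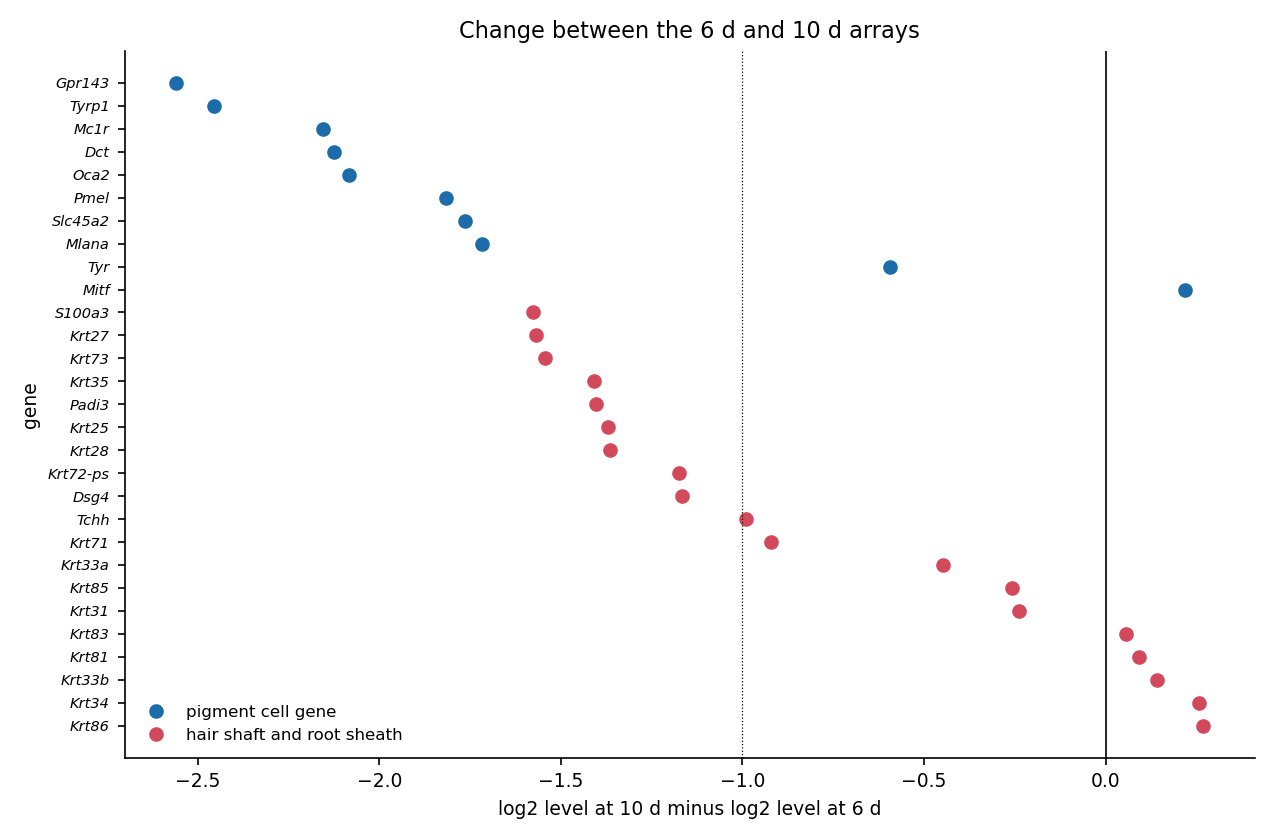
Log2 level at 10 d minus log2 level at 6 d (horizontal axis) for the 10 pigment cell genes and 19 hair shaft and root sheath genes (vertical axis), 1 array per time, with the dotted line at a 2-fold decrease. Pigment genes other than Tyr and Mitf lie at or below -1.72, and hair shaft and root sheath genes lie between -1.58 and 0.27.

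The other genes of the lineage mostly did not follow. Of 12 lineage factors and receptors, 3 were 2-fold higher at 4 d, against 5.91% of all genes, and 1 lower, against 6.50%. Their median difference was -0.20. At 6 d 1 was higher, against 4.16%, and 1 lower, against 2.09%, with a median of -0.32. Irf4, the lower one at 4 d, differed from the control by -1.26 there. It was at -0.62 at 6 d, 0.75 at 10 d and -1.09 at 50 d. Sox10, the neural crest factor that activates Mitf, differed from the control by between -0.34 at 6 d and 0.31 at 12 h. Kit, the receptor that melanoblasts need to survive and migrate, was 0.46, 0.64 and 0.82 above the control at 12 h, 1 d and 2 d, and 0.64 and 0.14 above it on the 4 d and 6 d arrays. Ednrb, the endothelin receptor of the lineage, was -0.45 at 4 d, -0.61 at 6 d and -1.07 at 50 d. Pax3, which acts upstream of Mitf in melanocyte stem cells, was highest at 4 d, at 2.76-fold the control (log2 1.46), and at 0.58 at 6 d. A second Pax3 probe was also highest at 4 d, at least 3.80-fold above the control. Tfap2a, a factor shared by melanocytes and keratinocytes, was 1.15 above the control at 1 d, 1.32 a day later, and 3.47 and 2.53 on the 4 d and 6 d arrays, and its relative Tfap2b was 1.67 above it at 4 d.

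Trpm1, melastatin, is a cation channel gene whose transcription in melanocytes depends on MITF, and its 4 probes disagreed. They are numbered here by position on chr7 (mm9). Probe 3 (71371607-71371666), the brightest, was at 0.06 in the control, 0.15 and 0.70 on the 4 d and 6 d arrays and 1.69 by 10 d, and it is the one counted above. Probe 2 (71369544-71369603) was at -6.19, -5.85 and -6.90 in the control and at 12 h and 1 d, not well above background. It then reached -4.73 on the 2 d array, 1.59 and 1.00 on the 4 d and 6 d arrays, -0.88 by 10 d and -3.70 by 50 d. It was at least 102-fold above the control at 4 d, at least 67.6-fold at 6 d, and later at least 18.4-fold and 2.61-fold, on the 10 d and 50 d arrays. Probe 1 (71363401-71363460) was 7.48-fold the control at 4 d, 6.75-fold at 6 d and 2.62-fold at 10 d. Probe 4 (71413940-71413999) was well above background at 4 d and 6 d only, at least 1.23-fold and at least 1.18-fold. Probes 1 and 2 had the course of the pigment genes, and probe 3 did not. They were singled out after their values were seen.

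**Figure D4:**
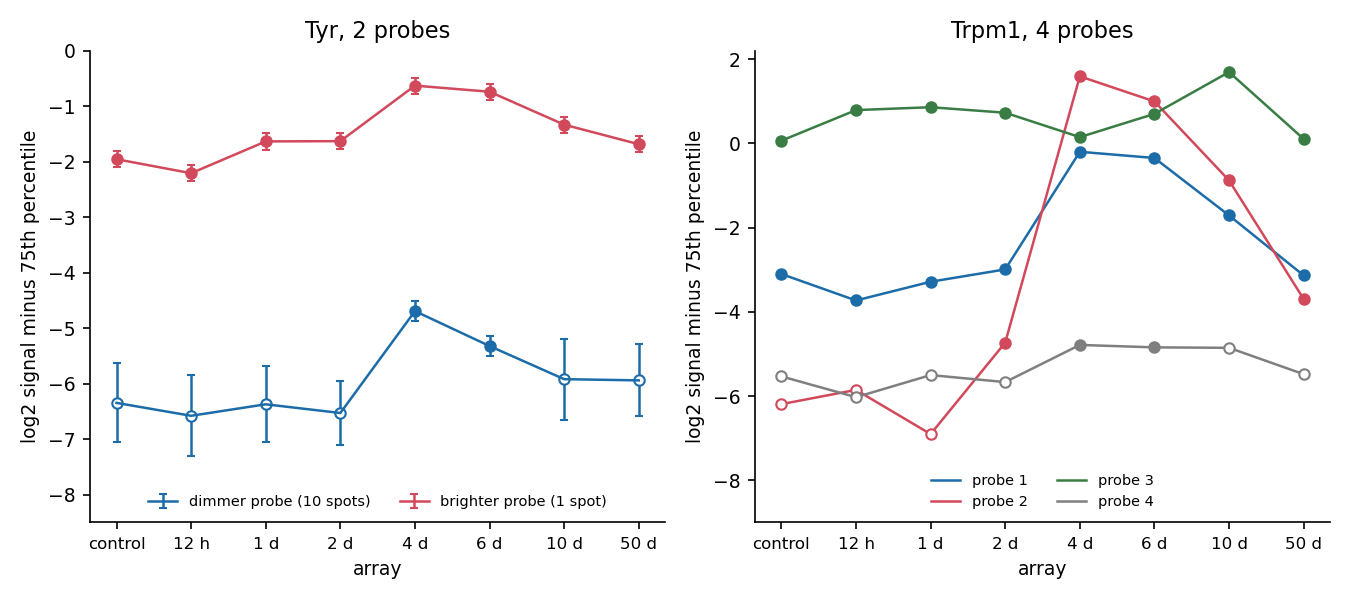
Log2 processed signal minus the array's 75th percentile (vertical axis) on the 8 arrays (horizontal axis) for the probes of Tyr (left; bars are the scanner's error for the 1-spot probe and the SD over spots for the 10-spot probe) and of Trpm1 (right); filled points are well above background. Both Tyr probes are highest at 4 d, Trpm1 probes 1 and 2 are highest at 4 d, and Trpm1 probe 3 is highest at 10 d.

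Among 10 further proteins of the melanosome membrane, 2 were 2-fold higher on the 4 d array, against 5.91% of all genes. On that array 1 was lower, against 6.50%. The 6 d array had 4 higher, against 4.16%, and 1 lower, against 2.09%. By 10 d 3 were higher, against 3.99%, and none lower, against 2.13%. The medians on these 3 arrays were 0.27, 0.33 and 0.28. Mfsd12 was the lower gene on the 4 d and 6 d arrays. Slc24a5, an exchanger that affects skin and coat pigment, was at -4.51 in the control, -3.93 at 12 h, -4.58 at 1 d and -3.43 on the 2 d array, then -0.23 and -0.18 at 4 d and 6 d, -2.26 on the 10 d array and -3.82 on the 50 d array, so that the same 3 arrays were high. Slc24a4, a related exchanger, was 1.87 above the control at 4 d, 2.17 at 6 d and 1.12 at 10 d. Mfsd12, a lysosomal and melanosomal transporter (array symbol F630110N24Rik), was lower than the control at every time, by between -0.80 and -1.60. Many other cells also use the 26 genes that move cargo to melanosomes or carry melanosomes to the cell edge. None of the 26 was called at 4 d, against 5.91% of all genes higher and 6.50% lower. At 6 d 1 was higher, against 4.16%, and 1 lower, against 2.09%. The medians were -0.18 at 4 d and -0.11 at 6 d. Sytl2, the higher one, was at a level of -0.14 in the control and 0.95 at 6 d. Mlph, the lower one and the adaptor that ties melanosomes to myosin, differed from the control by -1.14 at 6 d and -1.26 at 10 d. Rab27a was 0.65 above the control at 4 d. The brighter Rab38 probe was 0.69 above it at 4 d and 0.95 at 6 d, whereas a second Rab38 probe, singled out after its values were seen, was well above background on the 4 d array only, at least 2.30-fold above the control.

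Some of the signals that reach melanocytes from other cells were called higher at 4 d, and none at 6 d or 10 d. Of 12 such genes 3 were 2-fold higher at 4 d, against 5.91% of all genes. None was at 6 d or 10 d, against 4.16% and 3.99%. The 3 were Corin, Bmp4 and, by its brighter probe alone, Asip (Bmp4 is named after its value was seen). The medians at 4 d, 6 d and 10 d were 0.11, 0.21 and -0.06. Kitl, the ligand of Kit, stayed between -0.26 and 0.33 from the control, and Pomc, the precursor of melanocyte-stimulating hormone, between -0.26 and 0.21. Edn3, a ligand of Ednrb, was well above background at 4 d and 6 d only, at least 1.23-fold and at least 1.21-fold above the control. Corin, a dermal papilla protease that modifies agouti signalling, was 3.22 above the control at 4 d and 0.79 at 6 d.

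Asip, agouti, the antagonist of Mc1r, is named a on the array and its probes disagreed as well. The brighter one was well above background from 12 h to 4 d and was at least 4.05-fold above the control at 12 h and at least 2.51-fold at 4 d. The other was well above background in the control only, which was at least 3.83-fold above 12 h. No direction is given for Asip.

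Markers of other cell types moved along with the pigment genes. The 19 hair shaft and inner root sheath genes had a median difference of 5.05 at 4 d, 7.31 at 6 d and 6.09 at 10 d, with 18 higher at each. At 50 d it was 1.38, with 10 higher. Of all genes 5.91%, 4.16%, 3.99% and 2.70% were higher at 4 d, 6 d, 10 d and 50 d. Their mean level ran from -2.19 in the control to 4.19 at 6 d. Krt25 and Krt35 were 8.81 and 8.45 above the control at 4 d. At 12 h the median was 1.82 and 14 of 19 were 2-fold higher, against 3.85% of all genes. At 1 d the median was 0.34, with 1 higher, against 2.75% of all genes.

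The 10 hair matrix regulators had medians of 2.33 at 4 d, 2.22 at 6 d and 1.13 at 10 d. Of them 10, 8 and 5 were higher, against 5.91%, 4.16% and 3.99% of all genes. Shh, the growth signal of the hair matrix, was at least 21.5-fold above the control at 4 d and at least 4.75-fold at 6 d, and was not well above background at 10 d. Foxn1, a hair differentiation factor known to act in pigment transfer, was at least 22.5-fold higher at 4 d. Lef1 was 5.59 above the control at 4 d and 3.58 at 12 h.

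Cell division genes were high at 4 d and 6 d and low at 10 d. All 12 were higher at 4 d, against 5.91% of all genes, with a median of 2.03. At 6 d 8 were higher, against 4.16%, with a median of 1.31. At 10 d 6 were 2-fold lower than the control, against 2.13% of all genes, and none higher, against 3.99%. Interfollicular epidermis genes had medians of 2.36, 3.35 and 2.13 over the first 3 times and of 2.13, 0.91 and -1.22 over the next 3, so they were high before the pigment genes. Their mean level ran from -2.04 at 10 d to 1.85 at 1 d.

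Schwann cells share the neural crest origin and Sox10 with melanocytes. Their 10 genes had a median of -0.29 at 4 d and 0.22 at 6 d, and their mean level lay between 0.69 and 1.17. At 4 d 1 was higher, against 5.91% of all genes, and at 6 d none, against 4.16%. Mast cells, which also use Kit and Mitf, had medians of 0.26 and -0.02 over 8 measured genes, and Ms4a2 was well above background on no array. Adipocyte genes were lower, with medians of -0.76 at 4 d, -0.84 at 6 d and -0.69 on the 10 d array. The dermal fibroblast list was at -0.42, -0.30 and -0.21. The part of hair, matrix, epidermal or fat content of the samples in the pigment gene differences was not tested.

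**Figure D5:**
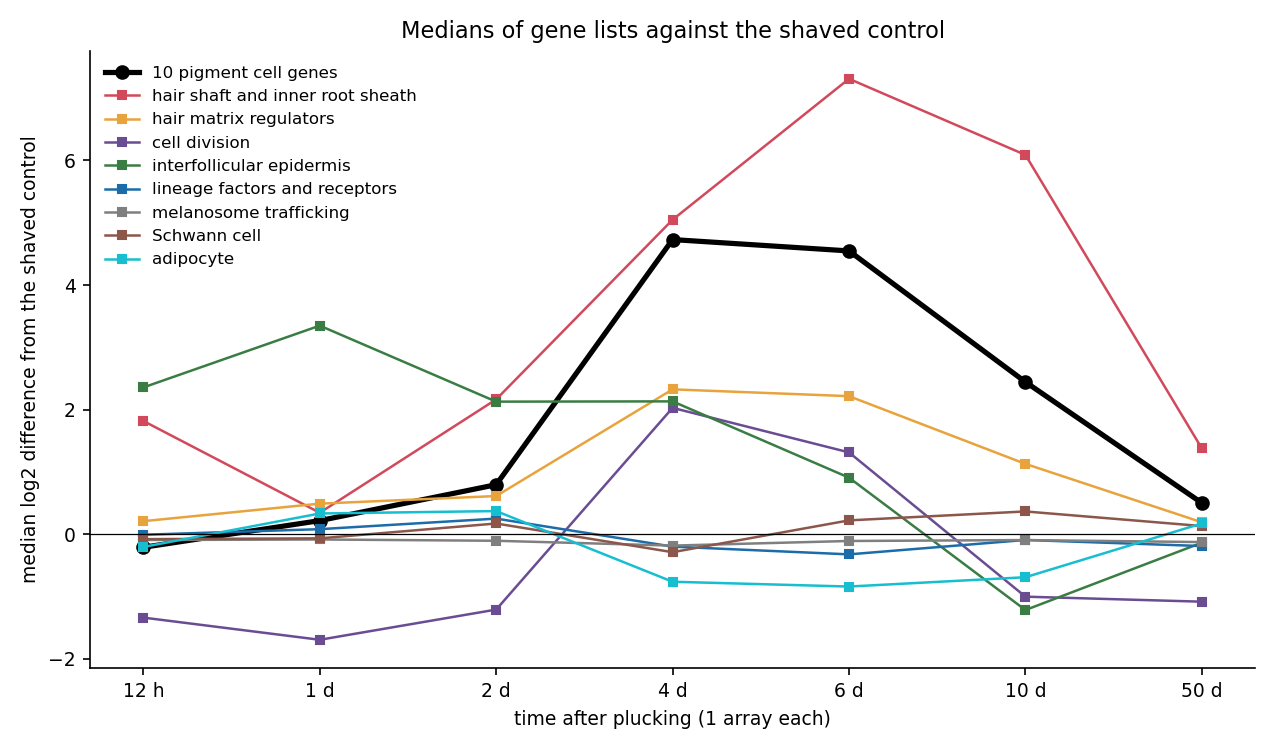
Median log2 difference from the shaved control (vertical axis) at 7 times after plucking (horizontal axis, 1 array each, evenly spaced) for the 10 pigment cell genes and 8 gene lists; there are no error bars because no time was replicated. The pigment gene median is 4.73 at 4 d, 4.55 at 6 d and 2.44 at 10 d, while the lineage factor and trafficking lists stay near 0.

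Genes with a course like that of the pigment genes were sought by the Pearson r of each gene with the mean profile of the 10 members over the 8 arrays. Of 10242 genes ranked, 6293 had a current gene symbol, and 37 of those had an r above 0.95. The closest 10 were Fbp1 (0.994), Hoxc13 (0.991), B3galt5 (0.990), Krt73 (0.986), Siah1b, Dclk3 and Slc24a5 (0.985 each), Gpr37 and Zfp618 (0.976 each) and Dlx2 (0.975). Fbp1, a gluconeogenic enzyme, was at -2.32 in the control, -2.34, -2.43 and -1.43 on the 12 h, 1 d and 2 d arrays, 3.18 and 3.78 on the 4 d and 6 d arrays, 1.21 by 10 d and -1.52 by 50 d. Hoxc13, a homeobox regulator of hair keratins, was at -3.75 in the control, 2.03 and 1.79 on the 4 d and 6 d arrays and -0.13 by 10 d. Krt73 is a keratin of the inner root sheath, and Slc24a5 was described above. Siah1b is in this group with a small range, from -0.28 to 0.80, since r does not depend on the size of a change. Ranked by Spearman's rho instead, 2 of the 10 remained.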

How the data were processed

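Cy3-labelled total RNA of each group was read on 1 Agilent mouse array. The deposited tables give spot intensity from Agilent Feature Extraction 10.5.1.1, with background subtracted and probe positions on mm9, per the file headers. Exon and UTR positions are left out because an mm9 annotation was not used. The negative-control signal was out of range on 7 arrays per the file headers.

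Control and outlier spots were left out, spots of a probe averaged, and the brightest probe stood for a gene. Values are log2 signals minus the array's 75th percentile. A gene was called at 2-fold or more from the reference if well above background on the brighter array. Where it was not on the dimmer one, its fold is a bound, against the higher of the lowest well-above-background signal there and its own. Counts and medians use the dim array's own value, unless said to be at the bound. Repeated spots differed by a median SD of 0.06 to 0.09 per array, and changes of probes of 1 gene by 0.15 to 0.17.

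The 10 members and 12 gene lists were chosen with earlier results of these data known, and all 164 genes matched. Beyond members, the text names up to 4 genes per list with the largest range, 8 chosen lineage and signal genes and the 10 most alike; others are said to be chosen later. Alternatives were normexp (limma 3.58.1, R 4.3.3, offset 50), quantile normalization, another centring, the mean over probes, other filters and folds, and 50 d as reference. The 2-fold threshold and the ranking by r were tried on simulated data with every spot set well above background. The background filter, the bounds and the choice of probe were not tried there. Python 3.11.15, numpy 2.4.6 and pandas 2.3.3 did the rest.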

Additional observations from a re-analysis of the deposited data

How the results depend on the processing

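Of 340 member differences recomputed under alternatives, 16 took the other sign, 12 of them against the 50 d array, 3 with normexp and 1 with quantile normalization; none of the 16 was a 2-fold call against the control. Normexp correction gave median member differences of 0.27 at 2 d, 2.44 and 2.48 on the 4 d and 6 d arrays, 1.05 by 10 d and 0.33 by 50 d, and counts of higher members of 5 at 10 d and 0 at 50 d; it adds 50 to each signal, which compresses dim probes, and it moved the median of all genes at 6 d to -0.20. Against the 50 d array in place of the control, the medians were -0.86, -0.56 and 0.34 over the first 3 times and 4.05, 3.72 and 1.92 over the next 3, and 0 members were higher at 2 d. With no background filter 1 member each was higher at 12 h and 1 d. Requiring a gene to be well above background on both arrays left 5 higher at 10 d, since fewer members could be called. Gpr143, Oca2 and Mc1r were not well above background in the control, so under this filter they could not be called at any time. A 4-fold threshold left 1 at 2 d and 0 at 50 d. The 1 at 2 d was Mc1r, on its own log2 difference of 2.34, while its bound was 1.24-fold. Quantile normalization, another centring and the mean over probes left all these counts of members as they were. Of the 10 genes most like the members, 2 remained with Spearman's rho, 7 with normexp, 7 with the mean over probes, 8 with quantile normalization, 10 with another centring and 6 without the 10 d array, the last chosen after seeing the data; the cause was not tested. No paired analysis was possible because every label carries replicate 1 and each group has 1 array. Dim spots limit what is known of Gpr143, Oca2, Mc1r and Tyr's second probe before 4 d.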
